A study of Mus musculus with 6 samples.

Results

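The contractile apparatus of peritubular myoid cells was followed through 10 genes in the mouse testis at 2 ages. The genes are Acta2, Actg2, Myh11, Myl9, Tpm2, Cnn1, Tagln, Smtn, Lmod1 and Des, chosen by name. Their probes are the mRNA probes of the array whose RefSeq accession maps to one of these genes. This gave 11 probes of 22464 mRNA probes, with 2 probes for Smtn and 1 for each other gene. RNA came from whole testis of untreated C57/BL6 mice, in a neonatal group aged 6 days and an adult group aged 8 weeks. Each age was measured on 3 arrays, 1 for each biological replicate, and the mice of an age were divided into 3 groups, so an array holds the RNA of more than 1 animal. More mice were used at 6 days than at 8 weeks, so the pools may differ in size between the ages, which bears on the spread within each. By the scan date in the scanner output, replicates 1 and 2 of both ages formed 1 batch and replicate 3 of both ages another. These batches are called slides below, a reading that rests on that date alone.

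Peritubular myoid cells are flattened, smooth muscle-like cells that wrap the seminiferous tubules. Their contraction moves fluid and sperm along the tubule, and with Sertoli cells they lay down the basement membrane. They contract, like other smooth muscle, when phosphorylated myosin pulls on actin filaments, and most of their contractile genes are also active in the smooth muscle of blood vessels.

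Signals are given as normalized log2 signal, the log2 of a probe's share of the 75th percentile on that array, with a floor at -7.22. Between 65.9% and 69.8% of the spots of an array were well above background (passed background, in short), and the 75th percentile lay between 747.3 and 2946.9 signal units. Spots that the scanner software marked as outliers (outlier-flagged) were left out of the main fit. The signals printed for single arrays, with their SDs, gaps, differences and sums, keep them. Outlier-flagged spots made up 30.69% and 25.38% of the spots on the neonatal and adult arrays of replicate 3. On the other 4 arrays they made up at most 10.7%. Changes are adult over neonatal and come from limma, with p adjusted by Benjamini-Hochberg over all tested probes. A call needed a 5-fold difference or more and an adjusted p of no more than 0.05. The words rose and fell are used from a fold change of at least 2 at the same adjusted p. The number of arrays limits the precision of every value.

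Of the 10 genes, 6 were lower on every adult array than on any neonatal array, which held for 45.6% of all mRNA probes above background. Acta2, Myh11, Smtn and Tagln fell by 3.76-fold to 4.97-fold. In the fit that keeps outlier-flagged spots Myl9 fell by 13.3-fold. Lmod1, which passed background on only 1 of 3 adult arrays, was lower by 8.94-fold with the others set to a limit near background. Actg2 went the other way and was higher in the adult in each of the 3 pairs of arrays. Tpm2 overlapped between the ages, Des was near the background at both ages, and Cnn1 did not pass background on any array.

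Of the 11 probes, 10 (9 genes) passed background on 1 or more arrays, and 8 (7 genes) could be tested with outlier-flagged spots left out. By limma, 0 of these 8 were called lower at 5-fold, against 13.7% of the 15121 mRNA probes tested, and 0 were called higher, against 12.6%. The methods' t-test also called 0, before and after adjustment. At an unadjusted p below 0.05, 6 of the 8 were lower, against 47.1% of all tested mRNA probes, and 1 was higher, against 30.7%. At 2-fold, 5 of the 8 were lower, against 36.6% of all tested mRNA probes, and 0 were higher, against 23.3%. The 5 include both Smtn probes and stand for 4 of the 7 genes. With outlier-flagged spots kept, 10 member probes were tested, of which 2 were lower at 5-fold (15.4% of 19310 mRNA probes), 7 were lower at 2-fold (39.0%) and 1 was higher at 2-fold (23.0%). Higher at 5-fold were 0, against 12.8% of all mRNA probes in that fit. At an unadjusted p below 0.05 that fit had 8 member probes lower (50.4% of all mRNA probes) and 1 higher (30.5%). The members were not tested as a set.

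The median log2 fold change was -1.93 over the 8 member probes (-1.91 with Smtn counted once) and -0.40 over all tested mRNA probes. The median of all mRNA probes moved with the scaling, to -0.73 after quantile normalization, -0.65 with a shift to the median and 0.03 after the normexp background correction, and the median of the members moved to -2.05, -2.19 and -1.74. Of all mRNA calls 52.1% were lower in the adult, against 60.9% after quantile normalization, 40.8% after normexp and 63.0% on the authors' log2 values. In whole tissue, fewer cells of a type and less RNA per cell cannot be told apart.

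**Figure D1:**
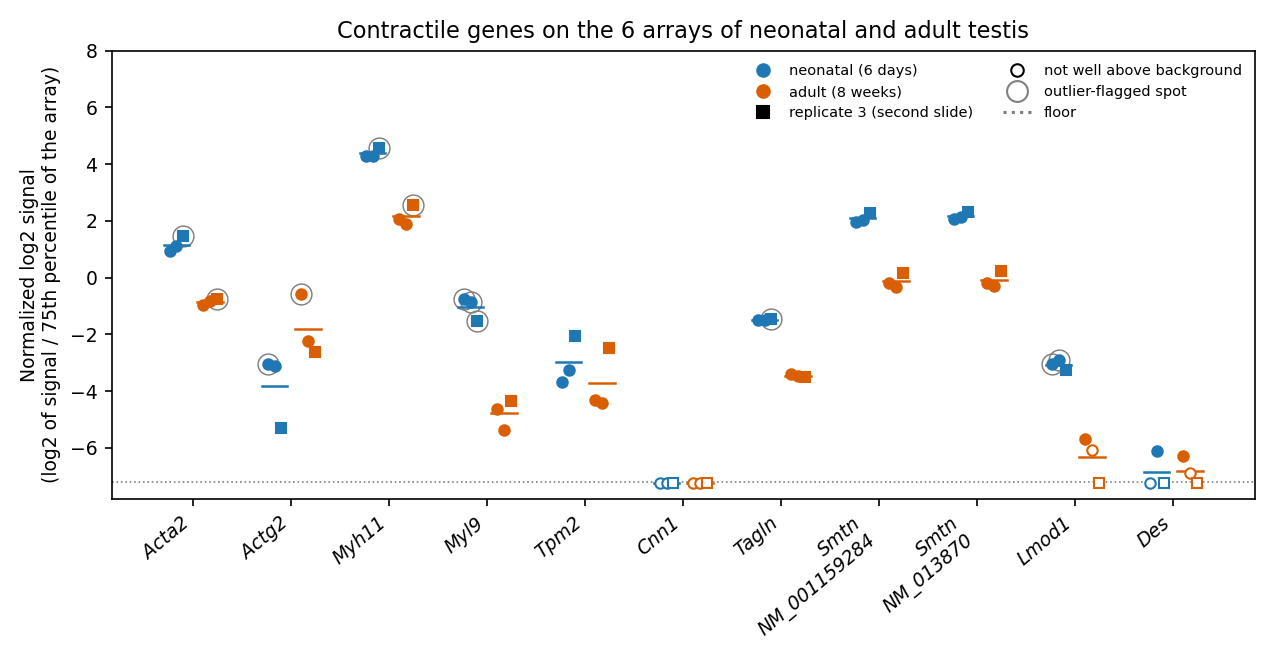
Normalized log2 signal (vertical axis) of the 11 probes of the contractile genes on each of the 6 arrays. Blue points are neonatal and orange points adult arrays, squares are replicate 3, open points are not well above background, grey rings mark outlier-flagged spots, short bars are the mean of the 3 arrays and the dotted line is the floor of -7.22. The neonatal points lie above the adult points without overlap for Acta2, Myh11, Myl9, Tagln, Smtn and Lmod1, and below them for Actg2.

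The actins form the thin filaments. Acta2 (NM_007392), the smooth muscle alpha-actin that is the usual marker of peritubular myoid cells, had a normalized log2 signal of 0.93, 1.12 and 1.45 on the neonatal arrays of replicates 1 to 3. On the adult arrays it had -0.97, -0.81 and -0.76. All neonatal arrays lay above all adult arrays, and the gap of 1.69 between the ages was wider than the spread within either. Acta2 fell 3.76-fold, with a log2 fold change by limma of -1.91 (SE 0.14, adjusted p = 0.00193, 2 pairs). Both spots of replicate 3 were outlier-flagged, and with them kept the value was -2.01 (SE 0.13, adjusted p = 0.000271).

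Actg2 (NM_009610), the gamma-actin of visceral smooth muscle, had -3.05, -3.11 and -5.30 on the neonatal arrays and -0.57, -2.23 and -2.63 on the adult arrays. The ages did not overlap, but the gap of 0.42 was narrow beside the SD of 1.28 among neonatal and 1.09 among adult arrays. Neonatal replicate 3 was low and adult replicate 1 was high. Its change of 1.77 (SE 0.53, adjusted p = 0.0567, 2 pairs) misses the threshold. Both spots of replicate 1 were outlier-flagged, and with them kept the value was 2.01 (SE 0.41, adjusted p = 0.0102), which passes. With outlier-flagged spots left out it passed 2-fold after normexp, with the filter on all 3 arrays of an age and with an intensity trend, and it passed on the authors' log2 values. With them kept it also passed after quantile normalization, after the median shift and without replicate 2. It did not pass with the spots kept and replicate 1 (adjusted p = 0.0872), replicate 3 (0.0983) or the replicate block (0.0629) left out. The value was positive in every setting tried. The difference between the changes of Acta2 and Actg2 was not tested.

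Myosin forms the thick filaments. Myh11 (NM_013607), the smooth muscle myosin heavy chain, had 4.28, 4.28 and 4.58 on the neonatal arrays and 2.06, 1.88 and 2.55 on the adult arrays. Replicate 3 was the highest array at both ages, with both of its spots outlier-flagged, and the ages were 1.73 apart at their closest. Myh11 fell 4.97-fold (log2 fold change -2.31, SE 0.15, adjusted p = 0.00149, 2 pairs), which lies just under the 5-fold threshold of 2.32. It passed 5-fold after quantile normalization (-2.93), the shift to the median (-2.57), normexp (-2.39) and on the authors' log2 values (-2.48), and by the methods' t-test its adjusted p was 0.0557.

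Myl9 (NM_172118) encodes the regulatory light chain whose phosphorylation switches smooth muscle myosin on. Its signal was -0.76, -0.84 and -1.54 on the neonatal arrays and -4.62, -5.37 and -4.35 on the adult arrays. The gap between the ages was 2.82, the widest of the 11 probes. All 3 neonatal spots were outlier-flagged, so the probe could not be tested without them. With them kept Myl9 fell 13.3-fold (log2 fold change -3.73, SE 0.36, adjusted p = 0.000875), and the log2 value was -3.99 on the authors' log2 values. The whole neonatal side of this value therefore rests on outlier-flagged spots.

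Tpm2 (NM_009416), a tropomyosin that lies along the actin filament, had -3.66, -3.24 and -2.06 on the neonatal arrays and -4.30, -4.42 and -2.48 on the adult arrays. The ages overlapped, because adult replicate 3 lay above neonatal replicates 1 and 2. Replicate 3, on the other slide, was higher than the mean of replicates 1 and 2 by 1.39 in the neonatal and by 1.88 in the adult group, and both of these differences exceeded the difference between the ages. Tpm2 changed by less than 2-fold (log2 fold change -0.74, SE 0.19, adjusted p = 0.0236, 3 pairs), and reached 2-fold only on the authors' log2 values. Without the replicate block the adjusted p was 0.366.

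A further group of proteins binds the actin filament and tunes its use by myosin. Tagln (NM_011526), transgelin or SM22-alpha, had -1.50, -1.48 and -1.45 on the neonatal arrays and -3.40, -3.48 and -3.52 on the adult arrays. Its replicates were the closest together of the measured members, with an SD of 0.02 and 0.06, and the ages were 1.90 apart. The neonatal spot of replicate 3 was outlier-flagged, and the SD of 0.02 keeps it. Tagln fell 3.87-fold (log2 fold change -1.95, SE 0.14, adjusted p = 0.00193, 2 pairs).

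Smtn encodes smoothelin, a marker of contractile smooth muscle that binds actin filaments, and was the only member with a second probe. The probe for NM_013870 had 2.05, 2.15 and 2.31 on the neonatal arrays and -0.19, -0.29 and 0.24 on the adult arrays. The ages did not overlap, with a gap of 1.81, and no spot was outlier-flagged. Its signal fell 4.76-fold (log2 fold change -2.25, SE 0.12, adjusted p = 0.000342, 3 pairs). The probe for NM_001159284 gave -2.22 (SE 0.11, adjusted p = 0.000303) with nearly the same value on each array, so the probes count as 1 gene. Both Smtn probes passed 5-fold without adult replicate 3 (-2.41 and -2.36), and after the shift to the median and on the authors' log2 values (-2.51 and -2.48 in each). Only the probe for NM_013870 passed it after quantile normalization (-2.34), after normexp (-2.36) and without replicate 3 (-2.34). With outlier-flagged spots kept the same probes passed it after the median shift, after quantile normalization and without replicate 3, and neither passed it in the other settings tried.

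Cnn1 (NM_009922), calponin 1, an inhibitor of the myosin ATPase and a marker of differentiated smooth muscle, was at the floor of -7.22 on all 6 arrays. It did not pass background on any of them, so its RNA was not detectable with this probe and no fold change is given.

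Lmod1 (NM_053106), leiomodin 1, starts new actin filaments in smooth muscle. Its signal was -3.06, -2.91 and -3.24 on the neonatal arrays and -5.69, -6.06 and -7.22 on the adult arrays. The neonatal arrays lay close together and 2.45 or more above the adult arrays, of which only replicate 1 was well above background. The neonatal spots of replicates 1 and 2 were outlier-flagged, so the probe could be tested only with them kept. The fit then gave -3.26 on the log2 scale (SE 0.29, adjusted p = 0.000711), which rests on 2 adult arrays that did not pass background. Each of these was set to the weakest signal that counted as well above background there, or to its own signal if stronger. Lmod1 was then lower by 8.94-fold. On adult replicate 2 its own signal of -6.06 was the stronger and still did not pass background, so this limit is not strict.

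Des (NM_010043) encodes desmin, the intermediate filament that ties the contractile units of muscle cells together. It had -7.22, -6.13 and -7.22 on the neonatal arrays and -6.30, -6.88 and -7.22 on the adult arrays. The ages overlapped, and only neonatal replicate 2 and adult replicate 1 were well above background. Its change of 0.06 (SE 0.35, adjusted p = 0.89) turned its sign with quantile normalization, the shift to the median and the authors' log2 values. At this signal a difference was not detectable.

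For Acta2, Myh11, Smtn and Tagln the adult minus neonatal difference of normalized log2 signal lay between -1.90 and -2.44 in every pair, with outlier-flagged spots kept. Acta2 differed by -1.90, -1.93 and -2.21 in replicates 1 to 3, and Myh11 by -2.22, -2.41 and -2.03. Tagln differed by -1.90, -2.00 and -2.07. The probe for NM_013870 of Smtn differed by -2.24, -2.44 and -2.07, so that the pair with the widest difference was not the same for each gene.

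Myl9 differed by -3.86, -4.52 and -2.82. Lmod1 differed by -2.63 in replicate 1, the only pair in which both arrays passed background, so its spread between pairs was not measured. Actg2 differed by 2.48, 0.87 and 2.66, and Tpm2 by -0.63, -1.18 and -0.41. The third of these pairs is also the value within the slide of replicate 3, and within the other slide the means were -1.91 for Acta2, -2.31 for Myh11, -1.95 for Tagln, -2.34 for NM_013870 and -2.27 for NM_001159284 of Smtn. They were -4.19 for Myl9, 1.68 for Actg2 and -0.91 for Tpm2. With the slide as a block in place of the replicate number, the same 5 of 8 probes were lower at 2-fold and Actg2 had an adjusted p of 0.0667.

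All adult arrays lay below all neonatal arrays for 7 probes (6 genes), which held for 45.6% of the mRNA probes above background, and all adult arrays lay above for Actg2, which held for 26.9%. Within an age, the arrays did not order the genes alike. Of the 7 genes well above background on all arrays, replicate 3 was the highest neonatal array for 5 and the lowest for 2, and likewise the highest adult array for 5 and the lowest for 2. Actg2 was the lowest on replicate 3 at both ages, where Tpm2 and Myh11 were the highest.

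The mRNA probes with the profile most like the members were looked for among the 4378 that had no outlier-flagged spot and passed background on every array. The mean profile of the 7 member genes measured throughout, centred on its mean, was 0.77, 0.85 and 0.73 on the neonatal arrays and -0.69, -1.09 and -0.55 on the adult arrays. These 7 genes include Actg2, which went the other way, Tpm2, which overlapped between the ages, and Myl9, whose neonatal spots were all outlier-flagged. Closest was Fam189a1 (NM_183087), with a root mean square difference of 0.072 over the 6 arrays. Gnas (NM_019690), which encodes the stimulatory G protein alpha subunit, followed with 0.080, and Alkbh7 (NM_025538) with 0.083. Dysf (NM_021469), dysferlin, a membrane repair protein of muscle, had 0.110 and Magi1 (NM_010367), a scaffold of cell junctions, 0.119. Their log2 fold changes lay between -1.48 and -1.62. Those of Acta2, Myh11, Smtn and Tagln lay between -1.99 and -2.25 with outlier-flagged spots kept, so the matches follow the mean and not these genes.

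Genes for other parts of the smooth muscle machinery were examined next. Of 19 companion genes with 27 probes, 16 genes (24 probes) passed background and 19 probes could be tested. At 5-fold 9 of the 19 probes, covering 7 genes, were called lower, and 18 of 19 were lower at 2-fold. Over all tested mRNA probes 13.7% were lower and 12.6% higher at 5-fold, and 36.6% and 23.3% at 2-fold. With outlier-flagged spots kept, 15.4% were lower and 12.8% higher at 5-fold, and 39.0% and 23.0% at 2-fold. The counts of all lists below stand beside these shares. The median log2 fold change was -2.31, and the probes called lower numbered from 3 (normexp) to 13 (outlier-flagged spots kept, quantile normalization) under the alternatives other than leave-outs. Leave-outs of a replicate or array gave 5 to 11, with 5 of the 8 probes that remained testable without neonatal replicate 1 or 2. The LIM protein gene Csrp1 passed background on only 1 adult array and was lower by at least 13.1-fold (fit value -3.94, SE 0.35, adjusted p = 0.00114 from limma). Pdlim7, which encodes a PDZ and LIM protein of stress fibres, was not well above background on any adult array. Its neonatal signal was higher by at least 9.11-fold (3 arrays, adjusted p = 0.000147). For such bounds, each array of the dimmer age below background was given the weakest signal that counted as well above background there, or the probe's signal if that was stronger. Some spots above that weakest signal do not pass background. The words at least, here and below, are therefore relative to this limit and not strict. The other 2 probes of Pdlim7 gave at least 5.53-fold and 5.90-fold.

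The actin-binding genes Nexn (-2.77), Flna (-2.65) and Actn1 (-2.44) and the phosphoglucomutase-like gene Pgm5 (-2.75), whose product sits at muscle adhesion sites, were also called lower, each with an adjusted p of at most 0.00124. Csrp1 (-1.77), Pdlim7 (-1.38) and Pgm5 lost the call after the normexp background correction, and Actn1 lost it without the replicate block, without adult replicate 1 or 2 and, with Flna, without neonatal replicate 3. Nexn lost it by the methods' t-test after adjustment. The kinase that phosphorylates the myosin light chain, Mylk, fell by 1.86 on the log2 scale (SE 0.18, adjusted p = 0.00373), and caldesmon, Cald1, by 2.31 (SE 0.14, adjusted p = 0.00131). Both lie under 5-fold here. Cald1 passed it with outlier-flagged spots kept (-2.67), after quantile normalization (-2.60), after the median shift (-2.57) and on the authors' log2 values (-2.93), and Mylk after quantile normalization (-2.48). The light chain Myl6, which smooth muscle shares with other cells, fell by 1.06 (SE 0.11, adjusted p = 0.00176).

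**Figure D2:**
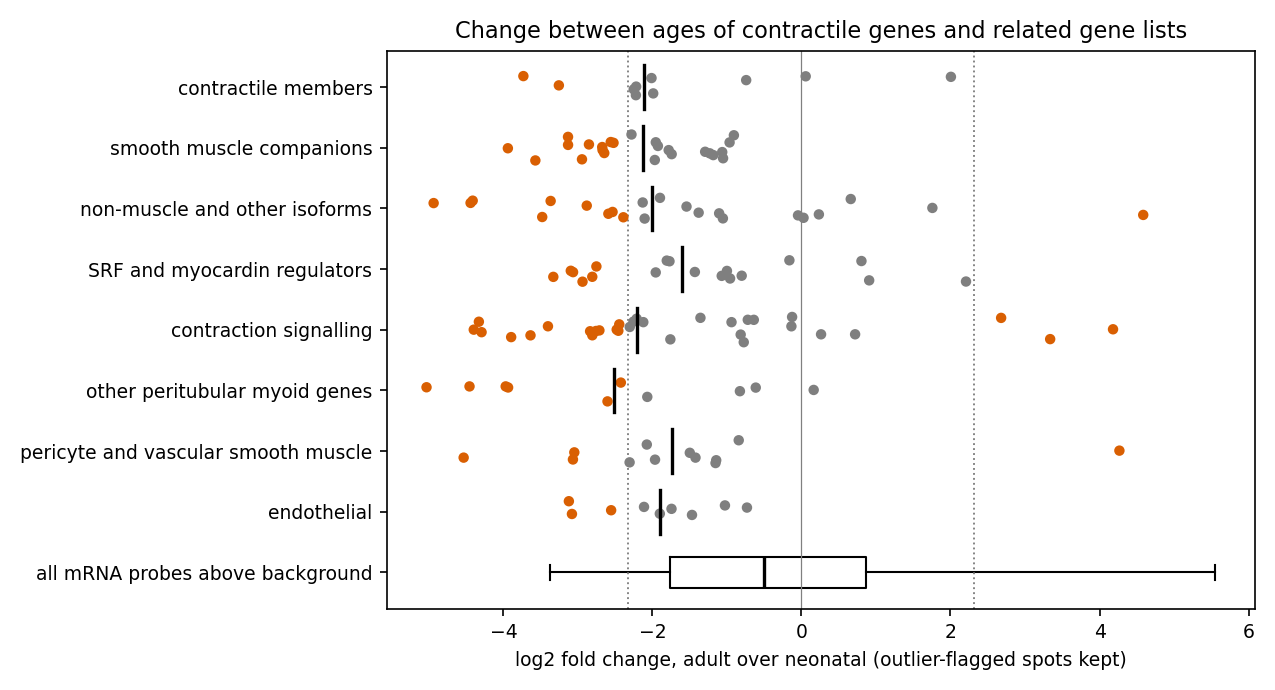
Log2 fold change, adult over neonatal (horizontal axis), of each probe of the contractile genes and of 7 related lists, with outlier-flagged spots kept. Points are probes, orange where called at 5-fold, black bars are list medians, dotted lines mark 5-fold, and the box shows all 19310 mRNA probes above background with its quartiles of -1.76 and 0.86 and whiskers at percentiles 5 and 95. The median of the contractile gene probes is -2.12 (-2.01 with Smtn counted once) and that of all mRNA probes -0.50.

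The contractile proteins have relatives made by other cells. Of 21 such genes with 22 probes, 14 probes could be tested, of which 7 were called lower and 1 higher, with a median log2 fold change of -2.14. Other than leave-outs, the alternatives gave 5 (normexp, and the methods' t-test after adjustment) to 11 (authors' log2 values) called lower and 0 to 1 higher. Leave-outs gave 2 to 10 called lower, with 2 of the 7 probes testable without replicate 1 or 2. The calponins that are not restricted to smooth muscle were called lower, Cnn2 with -4.83 (SE 0.24, adjusted p = 0.000897) and Cnn3 with -4.44 (SE 0.13, adjusted p = 0.00013), while Cnn1 was at the floor throughout. The transgelin relative Tagln2 had -3.33 (SE 0.15, adjusted p = 0.000747), the tropomyosin Tpm4, which passed background on 2 adult arrays, -4.41 (SE 0.42, adjusted p = 0.00138) and the non-muscle myosin heavy chain Myh9 -2.85 (SE 0.15, adjusted p = 0.000965). Tpm4 lost the call after normexp, and Cnn2 by the methods' t-test after adjustment. The differences between these changes and those of the smooth muscle genes were not tested.

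Smtnl1, a smoothelin-like gene, was the probe called higher, with -5.72, -7.03 and -6.30 on the neonatal and -1.63, -1.74 and -1.92 on the adult arrays. Its change of 4.69 (SE 0.37, adjusted p = 0.00233) was opposite in sign to that of Smtn, and lost the call by the methods' t-test and with no filter on dim probes. Myh14, another non-muscle myosin heavy chain, had -1.90 and the light chain Myl12b -1.08, both under 5-fold. Tmod1, which caps actin filaments, had -0.05 (SE 0.14, adjusted p = 0.769).

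Smooth muscle genes are switched on by serum response factor (SRF) together with myocardin and its relatives. Of 12 genes of this kind with 18 probes, 10 probes (7 genes) could be tested, 3 of them were called lower and the median log2 fold change was -1.04. Other than leave-outs, the alternatives gave 1 (normexp) to 6 (authors' log2 values, or outlier-flagged spots kept) called lower, and leave-outs gave 2 to 6. Myocardin, Myocd, had -2.64 (SE 0.20, adjusted p = 0.00219) and -3.07 by its probes, and the homeobox gene Prrx1 had -3.33 (SE 0.10, adjusted p = 0.000137). After normexp Myocd was at -1.60 and no longer called, and it also lost the call by the methods' t-test and without adult replicate 1. The myocardin relative Mrtfb had -1.02 and -1.07 by a pair of its probes and 0.87 by another, NM_181860, so its probes disagree in direction. Foxo4 had -1.96 and Mef2c -0.96. Srf itself could not be tested for outlier-flagged spots, and with them kept its log2 fold change was -1.77 (adjusted p = 0.000619), a value looked up after the data were seen. The other genes of the list testable only in that fit were Fhl2 (-3.1), Gata6 (-1.81), Csrp2 (-1.43) and, higher in the adult, Klf4 (2.21).

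Contraction is set off by endothelin, angiotensin, oxytocin and other signals. Of 26 genes of contraction signalling with 33 probes, 24 probes (20 genes) could be tested, with 11 called lower and 3 higher. The median was -2.23, or -1.85 with the probes below background at 1 age set to their bounds. Called lower were 6 after normexp, 5 by the methods' t-test after adjustment, 13 with outlier-flagged spots kept and 17 on the authors' log2 values, and called higher 1 after normexp and 3 in the others. Leave-outs gave 3 to 14 called lower, with 3 of the 13 probes testable without neonatal replicate 1, and 2 to 3 higher. The endothelin gene Edn1 had -4.02 (SE 0.14, adjusted p = 0.00049) and the endothelin receptor gene Ednrb -2.87 (SE 0.15, adjusted p = 0.00097). Another probe of Ednrb, testable by limma only with outlier-flagged spots kept, had -2.12 (SE 0.68, adjusted p = 0.0424) and was not called. The platelet-derived growth factor receptor Pdgfra had -4.26 (SE 0.21, adjusted p = 0.000891), and Gucy1b1, a subunit of the nitric oxide receptor that relaxes smooth muscle, -3.76 (SE 0.16, adjusted p = 0.000708). Pdgfra and Gucy1b1 lost the call by the methods' t-test after adjustment.

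The angiotensin receptor genes went the other way. Agtr1a had -1.52, -1.40 and -1.37 on the neonatal and 2.64, 2.63 and 2.98 on the adult arrays, which gave 4.10 (SE 0.14, adjusted p = 0.00047). Agtr1b had 3.34 (SE 0.14, adjusted p = 0.000206), and lost the call after normexp. The oxytocin receptor gene Oxtr had -0.56 (SE 0.14, adjusted p = 0.0368), the phosphodiesterase gene Pde5a -0.53 (SE 0.14, adjusted p = 0.0406) and the kinase gene Rock1 0.30 (SE 0.16, adjusted p = 0.176), with the sign of Rock1 turning under quantile normalization.

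Myoid cells are also known by genes that have no part in contraction. Of 9 such genes with 10 probes, 7 were tested and 4 called lower, with a median of -2.42. Other than leave-outs, the alternatives gave 2 (normexp) to 7 (authors' log2 values) called lower. Leave-outs gave 0 to 6, with 0 of the 3 probes testable without neonatal replicate 2. Gli1, a target of hedgehog signals, had -4.52 (SE 0.14, adjusted p = 0.000397), the retinoic acid hydroxylase gene Cyp26b1 -2.64 (SE 0.14, adjusted p = 0.00107) and the nuclear receptor gene Nr2f2 -2.42 (SE 0.14, adjusted p = 0.00121). Another probe of Nr2f2, testable by limma only with outlier-flagged spots kept, had -2.07 (SE 0.2, adjusted p = 0.000874) and was not called. Gdnf, a growth factor for spermatogonial stem cells, had a neonatal signal higher by at least 21.5-fold (2 arrays, adjusted p = 0.000367). Gdnf (-1.32) and Nr2f2 (-2.26) lost the call after normexp. The hedgehog receptor gene Ptch1, which passed background on 1 adult array, had -0.61, under 2-fold.

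Many markers of other cells differed between the ages as well. Of 9 pericyte and vascular smooth muscle markers, all above background, 10 probes (7 genes) were tested. Of these probes 1 was called lower, 1 higher and 8 were lower at 2-fold, with a median of -1.46. Several of the probes were of Abcc9 (-1.50, -1.42, -1.15 and -1.14), so this gene weighs more than the others in the counts and the median. Called lower were 3 of 12 with outlier-flagged spots kept (Heyl with -4.53, Mcam with -3.05 and Notch3), 4 after quantile normalization, 3 after the median shift and 6 on the authors' log2 values, and leave-outs gave 1 to 4. Notch3 had -3.07 (SE 0.14, adjusted p = 0.000244), Kcnj8, which passed background on 2 adult arrays, -2.31, Higd1b -2.08 and Abcc9 -1.50, while Ndufa4l2 had 4.17 (SE 0.16, adjusted p = 0.000575) and lost the call by the methods' t-test after adjustment. The summed normalized signal of the list, on the linear scale, was 10.6, 12.9 and 18.7 on the neonatal and 7.21, 7.01 and 9.09 on the adult arrays, with Mcam brightest in the neonatal and Ndufa4l2 in the adult group. Without Ndufa4l2 it was 10.3, 12.6 and 18.5 in the neonatal and 2.62, 2.57 and 4.89 in the adult group. The sum over the contractile gene probes, both Smtn probes included, was 30.7, 31.5 and 37.6 and then 7.35, 6.25 and 9.26. Myh11 was brightest at both ages.

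Of 8 endothelial markers, 3 of 8 tested probes were called lower and 7 were lower at 2-fold, with a median of -1.84. Pecam1 had -3.27, Cdh5 -2.53, Kdr -2.01, Tie1 -1.52 and Tek -1.03, and Pecam1 lost the call after normexp. Pecam1 and Cdh5 both lost it by the methods' t-test, with and without adjustment, and with no filter on dim probes, where 0 probes of the list were called, against 4 on the authors' log2 values. Leave-outs gave 0 to 3, with 0 of the 2 probes testable without neonatal replicate 1 or 2. The sum was 9.76, 11 and 16.6 on the neonatal and 2.77, 2.41 and 3.76 on the adult arrays, with Cdh5 brightest at both ages. Cells of vessel walls thus could not be separated from myoid cells, and the part of either in the change of the contractile genes was not tested.

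Sertoli and spermatogonial markers were lower in the adult. Of 8 Sertoli markers, 7 had a probe, and with outlier-flagged spots kept all 7 probes were lower at 2-fold and 3 at 5-fold. Fshr had -3.05, Inha -1.86 and Amh (2 adult arrays above background) -1.59 with these spots left out, where 3 probes were tested, 1 was called (Fshr) and the methods' t-test called 0. Leave-outs gave 0 to 3 called lower. The sum was 74.6, 80.0 and 58.2 in the neonatal and 22.3, 19.8 and 16.6 in the adult group, with Inha brightest at both ages. Of 7 tested probes for spermatogonia 4 were called lower, 3 of Sall4 (-4.43 for the brightest) and 1 of Lin28a (-2.49). Uchl1 (-2.28) and Kit (-1.76) were not called, though Uchl1 was with outlier-flagged spots kept (-2.37), after quantile normalization and the median shift and on the authors' log2 values, and Kit after quantile normalization (-2.35). With outlier-flagged spots kept 7 of 9 probes were called lower, and 8 when these were also scaled by quantiles. The count was 2 by the methods' t-test or with no filter on dim probes. Leave-outs gave 2 to 7, with 2 of the 2 probes testable without neonatal replicate 1 or 2. Sall4 lost the call by the methods' t-test and with no filter on dim probes, and Gfra1 passed background on no array. Their sum was 113, 121 and 116 in the neonatal and 23.9, 25.6 and 21.9 in the adult group, with Uchl1 brightest at both ages.

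Most markers of later germ cells were higher in the adult. All 5 tested spermatid probes were called higher, with 14.32 for Prm2, 14.18 for Tnp2, 12.47 for Prm1, 10.69 for Acrv1 and 9.26 for Tnp1. Their sum went from 0.505, 0.491 and 0.585 to 1198.8, 1422.4 and 1649.0, with Tnp1 brightest in the neonatal and Prm2 in the adult group. Of 7 tested spermatocyte probes 5 were called higher, with 13.24 for Pgk2 (above background on only 1 neonatal array, so the size of its change is uncertain), 6.31 for Piwil1 and 4.57 for Spo11, which lost the call by the methods' t-test after adjustment. That t-test called 2 probes higher. Leave-outs gave 0 to 6, with 0 probes testable without replicate 1 or 2 of both ages or of the adult group. Ldhc with 1.74 and Sycp1 with 0.81 were not called. Their sum was 24.4, 20.8 and 29.7 in the neonatal and 246, 260 and 294 in the adult group, with Ldhc brightest in the neonatal and Pgk2 in the adult group. The part of germ cells in the result for the contractile genes was not tested.

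Interstitial markers were mixed. Of 4 tested Leydig probes 1 was lower and 2 were higher at 2-fold, Hsd3b1 with -1.04, Cyp11a1 with 1.16 and Star with 1.34, and the sum went from 31.7, 34.9 and 30.2 to 74.3, 58.2 and 55.3, with Hsd3b1 brightest in the neonatal and Insl3 in the adult group. Insl3 was outlier-flagged on 5 arrays and could be tested only with these spots kept, where it was the 1 Leydig probe called higher. Without Insl3 the sum went down, from 26.8, 29.6 and 28.2 to 18.7, 18.9 and 20.1. Of 4 tested macrophage probes 1 was called, Aif1 with 6.74, while Cd163 had 1.32, Csf1r -0.57 and Cd14 -0.20. Their sum went from 5.72, 5.58 and 4.57 to 48.3, 46.7 and 46.3, with Csf1r brightest in the neonatal and Aif1 in the adult group, so the sum went up with 1 gene. Without Aif1 it was 5.31, 5.18 and 4.16 in the neonatal and 4.71, 4.76 and 4.45 in the adult group.

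Muscle of other kinds and the duct system were checked because tissue beside the testis can carry such RNA. Of 14 striated muscle genes, Mb and Tnnt3 passed background on no array, and 1 of 12 tested probes was called lower, the cardiac myosin gene Myh6 with -3.17 (SE 0.18, adjusted p = 0.00113), which lost the call by the methods' t-test after adjustment. The alternatives other than leave-outs gave 0 (methods' t-test after adjustment) to 3 (quantile normalization) called lower. Leave-outs gave 0 to 2, with 0 of the 11 probes testable without neonatal replicate 1 or 2. At 2-fold 5 of the 12 were lower and 2 higher, with a median of -0.81. Of the tested genes not called, those with the highest signal were Ttn with 1.04, Myh1 with 0.64 and Acta1 with -0.82 (adjusted p = 0.23), with Acta1 at -3.43, -4.91 and -1.69 on the neonatal arrays. The sum was 3.14, 3.46 and 4.17 in the neonatal and 1.37, 1.36 and 1.67 in the adult group, with Myh6 brightest in the neonatal and Ttn in the adult group.

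Of 11 markers of epididymal and duct epithelium, Lcn8 passed background on no array, and 1 of 9 tested probes was called. The neonatal signal of Defb42 was higher by at least 53.1-fold (2 arrays, adjusted p = 0.00113), and it lost the call by the methods' t-test. Leave-outs gave 0 to 2 called lower, and with the floor before scaling 2 were called higher. At 2-fold 2 of the 9 were lower and 3 higher. Pax8 had -1.61 and Adam7 -0.29. The sum was 2.79, 2.06 and 6.30 in the neonatal and 3.18, 2.66 and 8.30 in the adult group, and was highest on replicate 3 at both ages, the arrays on which Actg2 was lowest. The part of duct tissue in the values of Actg2 or Tpm2 was not tested.

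SRF binds a motif of 10 letters called the CArG box, and the promoter windows of the members were searched for it because most of them moved together. The windows come from RefSeq on GRCm38.p6 and hold 250 bases before and 50 after a gene's start. They were found for 7 of the 10 members, and the box, which reads the same way on both strands, was present for 1 of the 7, Myl9. In all, 488 of 27025 genes (1.81%) and 535 of 32851 windows (1.63%) held it. It was present for 2 of 17 smooth muscle companions (Myl6 and Vcl), 2 of 18 genes of the isoform list (Actg1 and Cnn2) and 2 of 8 SRF and myocardin regulators (Fhl2 and Srf). It was present for 0 of 19 genes of contraction signalling and 0 of 5 other myoid genes, and for 3 of 12 striated muscle genes, 2 of 6 spermatid and 1 of 6 spermatocyte markers, so it was not confined to the smooth muscle lists. The remaining marker lists had 0. The sites of Myl9, of Vcl and Cnn2, which were called lower (Vcl with -2.36, but not with outlier-flagged spots kept, at -2.28), and of Srf are shown to let the letters around the box be compared. Each is 30 bases long, written 5' to 3' on the strand of the gene, with the box in capitals. A match of letters is no evidence of binding, and a window without it says nothing of the factor.
Myl9, chr2:156775293-156775322, plus strand: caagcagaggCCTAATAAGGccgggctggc
Vcl, chr14:20929161-20929190, plus strand: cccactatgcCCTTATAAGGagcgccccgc
Cnn2, chr10:79988534-79988563, plus strand: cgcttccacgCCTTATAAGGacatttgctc
Srf, chr17:46556225-46556254, minus strand: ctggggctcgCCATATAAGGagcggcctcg
Srf, chr17:46556205-46556234, minus strand: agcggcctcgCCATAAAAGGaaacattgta

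The box began 161 bases before the gene start of Myl9, 227 before that of Vcl, 56 before that of Cnn2, and 82 and 62 before that of Srf. The sites of Vcl and Cnn2 have the same 10 letters in the box, and the sites of Srf overlap in the bases printed.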

How the data were processed

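RNA of 6 whole-testis samples, 3 per age, was measured on 1-colour (Cy3) arrays that the authors read with Agilent Feature Extraction 10.5.1.1. The scanner output that the authors deposited gives each spot's intensity after background subtraction, with no normalization between arrays. A log2 table that the authors made with GeneSpring GX is deposited as well and served as an alternative. Of its values 99.8% differ from the log2 intensity, with a floor of 5, by a fixed amount per array to within 0.001, and the medians of the columns lie between 1.20 and 1.30.

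Spots of a probe were averaged and divided by the array's 75th percentile, a floor was set at the scaled value of a signal of 5 (-7.22), and the log2 was taken. Control spots were left out. Outlier-flagged spots were left out of the main fit and kept in the signals and sums printed for single arrays. Saturation was seen in 0 spots. A probe needed 1 array well above background and 2 complete pairs to be fitted with limma 3.58.1 in R 4.3.3. The replicate number entered as a block, since a paired test is named in the methods. The deviations of arrays with the same number from their group means correlated between the ages with r of 0.401, 0.339 and 0.681. Arrays of the same slide and different number gave 0.432 and 0.374, against 0.401 and 0.339 for the same number on that slide. Within that slide the same number thus gave no closer tie than a different number. For replicate 3 number and slide coincide and cannot be told apart. Tables were made with Python 3.11.15, pandas 2.3.3, numpy 2.4.6, scipy 1.17.1 and matplotlib 3.10.9. The fit was tested on simulated data. p-values measure the spread between 2 or 3 pairs of pooled samples.

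Probes were named through RefSeq accessions (GRCm38.p6), which matched 21905 of 22464 mRNA probes (97.5%). The members, the lists and the tests were chosen with earlier results of these data known. Named genes are all members, and in each list every called gene up to 6 by size of change and up to 3 tested genes not called, those with the highest mean signal. A few genes that this rule names are not reported here. The 5 genes with the profile most like the members were added. A gene with several probes counts as called where all its tested probes are, and its brightest tested probe is given. Rhox5 and Cd68 were not analysed here, as no probe was matched to them by accession. Alternatives were scaling by quantiles or by the median, the floor before scaling, normexp with an offset of 50 (on the median spot signal, the mean signal not being used here), the authors' log2 values, filters on dim probes, outlier-flagged spots kept, an intensity trend in the variance, the block removed or replaced by slide, each replicate or array left out, a fold of 2 and the methods' t-test.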

Additional observations from a re-analysis of the deposited data

How the results depend on the processing

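Signal over background limits Cnn1, Des and the adult values of Lmod1. The number of mRNA probes called at 5-fold was 3983. It was 2534 after normexp, 6149 on the authors' log2 values, 6252 and 6047 with outlier-flagged spots kept under quantile normalization or the shift to the median, and 9057 at 2-fold, and lay between 1773 and 5488 with a replicate or array left out, where fewer or, with the spots kept, more probes are tested. Contractile member probes called lower at 5-fold were 0 of 8. There were 2 after quantile normalization, 3 with the shift to the median, 2 after normexp, 5 on the authors' log2 values and 5 at 2-fold. With outlier-flagged spots kept there were 2, also without the replicate block, then 4 when scaled by quantiles and 5 when shifted to the median, and leaving out replicates or arrays gave 0 to 3. At 2-fold the 5 member probes became 8 on the authors' log2 values and lay between 2 and 7 on leaving out replicates or arrays. The low end came without replicate 1 or replicate 2 of both ages or of the neonatal group, where only 5 and 4 member probes could be tested, and both Smtn probes stayed lower. The median log2 fold change of the member probes (-1.93) became -2.05 after quantile normalization, -2.19 with the shift to the median, -1.74 after normexp and -2.38 on the authors' log2 values. With outlier-flagged spots kept it was -2.12, with or without the replicate block, -2.23 when scaled by quantiles and -2.37 when shifted to the median, and it lay between -2.14 and -0.80 on leaving out replicates or arrays. Without the replicate block, 5 member probes were lower at 2-fold and 0 at 5-fold, as with it. Among the members, the 1 loss at 2-fold was Myh11 by the methods' t-test after adjustment. The combinations with outlier-flagged spots kept and the 2-fold count under every alternative were chosen after seeing the data.

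Some values near 0 changed sign. Des (0.06) was at -0.43 after quantile normalization, -0.09 with the shift to the median and -0.03 on the authors' log2 values, with the first and second values the same with outlier-flagged spots kept, and lay between -0.38 and 0.46 on leaving out replicates or arrays. Rock1 was at -0.13 after quantile normalization and -0.12 with outlier-flagged spots kept as well. After normexp, Ptch1 was at 0.20 and Cd14 at 0.00. On leaving out replicates or arrays Tmod1 lay between -0.24 and 0.06, Cd14 between -0.64 and 0.33, Acta1 between -1.60 and 0.01 and Adam7 between -0.78 and 0.34. The cause of these shifts was not tested. Over the 78 listed genes, 1859 of 1956 values under the alternatives kept their direction and side of the 5-fold threshold, 40 lost the call, 41 gained it and 16 changed sign. The genes that gained it under a scaling or with outlier-flagged spots kept were Cald1, Higd1b, Inha, Kcnj8, Kdr, Kit, Mylk and Uchl1. The genes that lost the call were 9 after normexp, namely Agtr1b, Csrp1, Gdnf, Myocd, Nr2f2, Pdlim7, Pecam1, Pgm5 and Tpm4. By the methods' t-test after adjustment there were 15, if Myh11 at 2-fold is counted, and the others were Cdh5, Cnn2, Defb42, Fshr, Gucy1b1, Myh6, Myocd, Ndufa4l2, Nexn, Pdgfra, Pecam1, Sall4, Smtnl1 and Spo11. Without adjustment the t-test lost 7, Cdh5, Defb42, Fshr, Myocd, Pecam1, Sall4 and Smtnl1.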
